A study of Mus musculus with 6 samples.

Results

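The genes described here encode lysosomal hydrolases, their activators, the membrane proteins of the lysosome, the receptors that sort enzymes to it and the TFEB family of transcription factors. There are 45 such genes, chosen by name without cathepsins and proton pump subunits, and all 45 were found by gene symbol on the arrays, with 100 of the 45037 probe sets tested and 45 of the 18193 genes. RNA of stria vascularis, the epithelium of the cochlear lateral wall, was measured on 3 Affymetrix mouse 430 2.0 arrays from Slc26a4-/- mice and 3 from Slc26a4+/+ mice to compare gene expression between the genotypes. Slc26a4-/- mice lack the anion exchanger pendrin in every tissue and are deaf, and Slc26a4+/+ mice are wild type. All were adult mice of the 129S6 strain, for which no treatment is named, and stria vascularis was dissected without perfusion. Blood left in the capillaries was thus included, in an amount that the paper calls minimal and judges insignificant. On each array the RNA of 2 animals was pooled and amplified before labelling, so the tests measured the spread between pools.

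Lysosomes degrade glycans, lipids, proteins and nucleic acids at acid pH. Most of their soluble enzymes carry mannose 6-phosphate, by which a pair of receptors bring them from the Golgi apparatus to endosomes, and transcription factors of the TFEB family induce many lysosomal genes together through a short palindromic element in their promoters. In stria vascularis, lysosomes are present in epithelial cells, pigmented intermediate cells and resident macrophages, and macrophages are known for their high content of lysosomal enzymes.

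The authors deposited GCOS signals, intensities on a linear scale that had been scaled for each array. Slc26a4, the targeted gene, had signals of 520.2, 717 and 619 in the Slc26a4-/- pools, against 1354, 1262 and 793 in the Slc26a4+/+ pools, with a log2 fold change of -0.85 (limma, adjusted p = 0.119). Whether its probe set lies within the deleted part is not stated in the sources, and the labels could not be checked by it. Background, set at percentile 95 of the signals of 44 olfactory receptor probe sets, lay between 187 and 214 on the Slc26a4-/- arrays and between 199.7 and 319 on the Slc26a4+/+ arrays. The ratio of 3′ to 5′ probe sets of Gapdh, which rises as RNA is degraded, was 3.34 to 3.80 on the Slc26a4-/- arrays and 2.25, 7.19 and 10.5 on Slc26a4+/+ replicates 1, 2 and 3. The sexes of the pools also differed, since signals of Eif2s3y, a gene of the Y chromosome, were 3.10, 3.60 and 3.10 in the Slc26a4-/- pools, against 1541, 639.9 and 805 in the Slc26a4+/+ pools. Sex and genotype therefore cannot be told apart. Of the markers of stria vascularis, all 7 of marginal cells were above background on at least 2 arrays of a genotype, and Kcnj10, which encodes the K+ channel of intermediate cells, gave 17564, 16484 and 16967 in the Slc26a4-/- pools, against 15156, 17665 and 18684 in the Slc26a4+/+ pools. Tyrp1, a pigment enzyme of intermediate cells, was below background on all Slc26a4+/+ arrays and above it on all Slc26a4-/- arrays.

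Transcripts of lysosomal genes were measured in stria vascularis of both genotypes, and 4 of the 45 genes rose in Slc26a4-/- while 0 fell. The genes that rose were Laptm5, Lipa, Gusb and Naglu, by 0.76 to 1.89 on the log2 scale. Read by its brightest probe set, 44 of the 45 genes were above background on at least 2 arrays of a genotype, and Galc was the exception. A change was called at an adjusted p under 0.05 over all 45037 probe sets. The 4 genes that rose are 8.89% of the 45, beside 1.88% of all genes that rose and 0.803% that fell. Restricted to a mean signal of at least 300 over the 6 arrays, they were 4 of 40, or 10%, beside 3.11% of such genes that rose and 1.44% that fell. Of the 100 probe sets 4 rose and 0 fell, beside 1.19% and 0.540% of all probe sets. At an unadjusted p under 0.05 in limma, 14 of the 45 genes, or 31.1%, were higher and 0 lower, beside 8.48% and 6.42% of all genes. A paired t-test of log2 signals was also run, called the methods' t-test since the Methods name paired t-tests. Arrays were paired by replicate number, although the sources do not say that the arrays were paired. At an unadjusted p under 0.05 this test gave 12 genes, or 26.7%, higher and 0 lower, beside 5.53% and 5.23%. After Benjamini-Hochberg adjustment it gave 0 of the 45 genes, and 0 of all 45037 probe sets. In these bulk samples, more cells of a type and more RNA per cell cannot be told apart.

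The remaining 41 genes did not pass, and 30 of them had a log2 fold change above 0. Over all 45 genes the median log2 fold change was 0.17, against -0.03 over all genes, and 75.6% lay above 0, against 47.0% of all genes. In 18 of the 45 genes, or 40%, every Slc26a4-/- array was above every Slc26a4+/+ array, which was so in 11.2% of all genes. In 0 of the 45 was every Slc26a4-/- array below every Slc26a4+/+ array, which was so in 9.73% of all genes. Among genes with a mean signal of at least 300 the first of these counts was 15 of 40, or 37.5%, beside 15.4%, and the second 0 of 40, beside 12.4%. By the mean ratio between genotypes across a gene's probe sets, counted above 1.3 as in the Methods but without detection calls, 11 of the 45 genes were higher and 0 lower, beside 16% and 21.7% of all genes. These 11 were Acp5, Gusb, Laptm5, Lipa, Naglu, Cst3, Manba, Man2b1, Igf2r, Ctns and Hexa. The summed signal of the 45 genes was 166230 to 170194 on the Slc26a4-/- arrays and 140164 to 163999 on the Slc26a4+/+ arrays, with no overlap. Macrophage markers differed between the genotypes too. The summed signal of 16 such genes was 46287 to 48672 in Slc26a4-/- and 9352 to 12092 in Slc26a4+/+, and their part in these counts was not tested.

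The number of genes that rose depended on single arrays. It was 1 without Slc26a4-/- replicate 1, 2 without Slc26a4-/- replicate 2, Slc26a4-/- replicate 3 or Slc26a4+/+ replicate 2, and 9 without Slc26a4+/+ replicate 1. Without both Slc26a4+/+ replicates 2 and 3, the arrays with the highest Gapdh ratios, the median log2 fold change of the 45 genes was 0.29. A single Slc26a4+/+ array was then assumed to vary like the others.

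**Figure D1:**
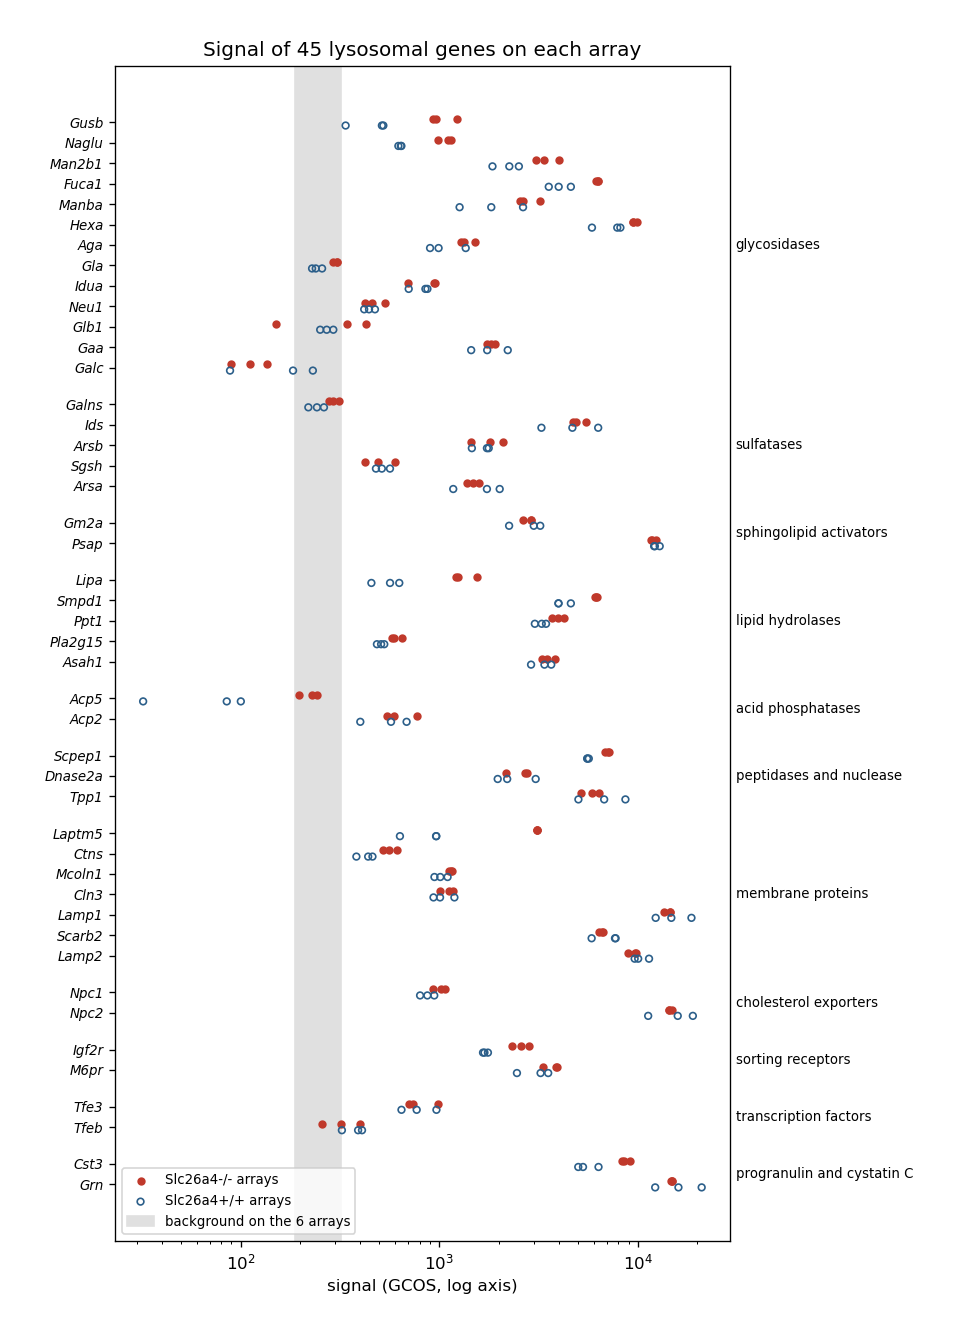
Each row is 1 of the 45 lysosomal genes, grouped by role, and the x axis gives its signal on a log axis, read from its brightest probe set. Filled red points are the 3 Slc26a4-/- arrays, open blue points are the 3 Slc26a4+/+ arrays and the grey band spans the background of the 6 arrays (187 to 319), so that genes such as Laptm5 with separate points can be told from genes such as Lamp1 with mixed ones.

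The TFEB family is represented by Tfeb itself and Tfe3, and neither passed. Tfeb had signals of 398, 256 and 322 in the Slc26a4-/- pools, against 324, 409 and 391 in the Slc26a4+/+ pools. Tfe3 had 704, 740.2 and 988 in the Slc26a4-/- pools, against 647, 969.7 and 771 in the Slc26a4+/+ pools. The genotypes overlapped in both genes, and the log2 fold changes were -0.22 (SE 0.23, limma, adjusted p = 0.78) for Tfeb and 0.03 (SE 0.20, adjusted p = 0.974) for Tfe3. Mitf, the related factor of pigment cells, had 7988, 7811 and 8767 in the Slc26a4-/- pools, against 8279, 8064 and 9771 in the Slc26a4+/+ pools and a log2 fold change of -0.08.

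TFEB proteins bind the E-box CACGTG, and most strongly a longer palindrome around it, the CLEAR motif. Promoters from RefSeq (GRCm38.p6, 250 bases before to 50 after a start) were found for 40 of the 45 genes. The E-box CACGTG lay in 10 of these 40, or 25.0%, against 8.09% of all genes in the table. The longer TCACGTGA, which contains it, lay in 4, or 10%, against 1.12%. The CLEAR motif, which adds a G before it and a C after it, lay in 2, or 5%, against 0.370%. Each motif is its own reverse complement, so that both strands were read at once. Of the 10 genes with the E-box 1, Naglu, rose, beside 4 of all 45 genes, or 8.89%. The stretches of 40 bases around the motif are shown for the 4 genes with TCACGTGA and for Naglu, with the longest motif in capitals, 5′ to 3′ on the strand of the gene.
Cln3 (chr7:126583335-126583374, minus strand): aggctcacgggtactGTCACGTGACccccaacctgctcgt
Igf2r (chr17:12769691-12769730, minus strand): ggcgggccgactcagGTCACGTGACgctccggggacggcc
Gla (chrX:134601210-134601249, minus strand): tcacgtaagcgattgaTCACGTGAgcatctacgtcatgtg
Mcoln1 (chr8:3500457-3500496, plus strand): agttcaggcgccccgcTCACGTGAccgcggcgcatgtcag
Naglu (chr11:101070004-101070043, plus strand): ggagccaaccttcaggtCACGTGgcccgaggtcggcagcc
None of Cln3, Igf2r, Gla and Mcoln1 passed the test, with log2 fold changes of 0.08, 0.59, 0.32 and 0.17. Lamp1, with the E-box at 4 places, had a log2 fold change of -0.08.

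The promoters of Laptm5 and Lipa, the genes with the largest increases among those that passed, are shown whole, in lower case since neither holds the E-box.
Laptm5 (chr4:130913066-130913365, plus strand): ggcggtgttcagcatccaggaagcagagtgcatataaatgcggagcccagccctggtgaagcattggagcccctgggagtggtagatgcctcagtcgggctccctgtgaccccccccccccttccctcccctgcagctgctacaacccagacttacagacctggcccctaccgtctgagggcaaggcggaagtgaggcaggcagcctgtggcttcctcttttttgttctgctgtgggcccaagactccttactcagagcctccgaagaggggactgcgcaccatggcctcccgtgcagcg
Lipa (chr19:34527425-34527724, minus strand): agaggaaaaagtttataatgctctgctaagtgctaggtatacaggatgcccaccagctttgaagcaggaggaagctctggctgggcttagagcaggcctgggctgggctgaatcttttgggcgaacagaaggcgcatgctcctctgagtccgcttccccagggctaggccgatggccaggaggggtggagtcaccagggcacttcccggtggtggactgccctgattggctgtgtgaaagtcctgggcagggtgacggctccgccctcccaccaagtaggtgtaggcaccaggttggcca
The promoter of Gusb did not hold it either. These letters describe the windows only and say nothing of factor binding.

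Glycosidases remove sugars from glycoproteins, glycolipids and glycosaminoglycans. Of the 13 measured, 2 rose, 0 fell and 12 had a log2 fold change above 0, beside 1.88%, 0.803% and 47.0% of all genes. Gusb, the β-glucuronidase that acts on glycosaminoglycans, had signals of 965, 1238 and 937 in the Slc26a4-/- pools, against 524, 515 and 338 in the Slc26a4+/+ pools. The groups did not overlap, and the log2 fold change was 1.21 (SE 0.21, limma, adjusted p = 0.0226). Its dimmer probe set had 193, 167 and 171 in the Slc26a4-/- pools, against 83.7, 80.0 and 104 in the Slc26a4+/+ pools, above background on 1 of the 6 arrays. Naglu, an N-acetylglucosaminidase of heparan sulfate breakdown, had signals of 1144, 1108 and 993 in the Slc26a4-/- pools, against 641, 646 and 624 in the Slc26a4+/+ pools. All Slc26a4-/- arrays were higher, the Slc26a4+/+ arrays lay close together, and the log2 fold change of 0.76 (SE 0.15) had an adjusted p of 0.0322. Both calls were lost without any 1 of the Slc26a4-/- arrays, with an adjusted p of 0.0917 to 0.137 for Gusb and 0.147 to 0.197 for Naglu, and without Slc26a4+/+ replicate 2, with 0.0573 for Gusb and 0.105 for Naglu. The Gapdh ratio of Slc26a4+/+ replicate 2 was 7.19, and its part was not tested. Gusb also lost its call with quantile normalization (adjusted p = 0.0508) and with median centring (0.0995), and Naglu with median centring (0.0997).

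Further glycosidases had higher signals on each Slc26a4-/- array without passing the test. Fuca1, which removes fucose, had 6339, 6177 and 6331 in the Slc26a4-/- pools, against 4610.3, 4003 and 3568 in the Slc26a4+/+ pools, with a log2 fold change of 0.64 (SE 0.14, limma, adjusted p = 0.0558). Man2b1, the acid α-mannosidase, had 3390.2, 4029 and 3061 in the Slc26a4-/- pools, against 1857, 2258 and 2523 in the Slc26a4+/+ pools (log2 fold change 0.66, adjusted p = 0.0916). Hexa, the α subunit of β-hexosaminidase, had 9493, 9909 and 9485 in the Slc26a4-/- pools, against 5889, 7898 and 8188 in the Slc26a4+/+ pools (log2 fold change 0.41, adjusted p = 0.325). In Manba, the β-mannosidase that follows Man2b1 in the breakdown of N-glycans, the groups overlapped, with 3215, 2552 and 2649.6 in the Slc26a4-/- pools, against 2648, 1832 and 1269 in the Slc26a4+/+ pools. Aga, which splits the sugar from asparagine, had a log2 fold change of 0.37, and Gla, the α-galactosidase of globoside breakdown, one of 0.32, with 1 Slc26a4+/+ array above background. In Gaa, Idua and Neu1 the groups overlapped on the probe set with the highest signal. Gaa, the acid α-glucosidase, averaged 1827 ± 79.0 in Slc26a4-/- and 1805 ± 386 in Slc26a4+/+ (mean ± SD of 3 arrays). Its second probe set kept the groups apart, with 1793, 1687 and 1613 in the Slc26a4-/- pools, against 1235, 1272 and 1486 in the Slc26a4+/+ pools (log2 fold change 0.35, limma, adjusted p = 0.343). Idua, the iduronidase, averaged 866 ± 147 in Slc26a4-/- and 809.9 ± 93.2 in Slc26a4+/+, and its second probe set also kept the groups apart, with a log2 fold change of 0.32 and an adjusted p of 0.663. Glb1, the β-galactosidase, exceeded background in 2 Slc26a4-/- pools and 1 Slc26a4+/+ pool, and Neu1, a sialidase that works in a complex with it, averaged 473 ± 57.9 in Slc26a4-/- and 446 ± 27.9 in Slc26a4+/+. Galc, the galactosylceramidase, was below background on all 6 arrays, and no fold is given for it.

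None of the 5 sulfatases passed in limma, with 0 higher and 0 lower at an unadjusted p under 0.05. The methods' t-test gave 1 higher, Galns, and 0 lower at that threshold and 0 after adjustment. Sulfatases remove sulfate from glycosaminoglycans and sulfatide. Ids, the iduronate sulfatase and the brightest of them, had 5465, 4731 and 4905 in the Slc26a4-/- pools, against 6329, 4693 and 3277 in the Slc26a4+/+ pools, and the Slc26a4+/+ arrays lay on both sides of the Slc26a4-/- arrays. Arsa, the arylsulfatase that acts on sulfatide, had a log2 fold change of -0.11, Sgsh, the heparan sulfamidase, -0.06 and Galns, a sulfatase of keratan sulfate and the dimmest, 0.29. Arsb, the arylsulfatase of dermatan sulfate, differed between its probe sets. The brightest averaged 1783 ± 329 in Slc26a4-/- and 1661 ± 173 in Slc26a4+/+ (mean ± SD of 3 arrays). The next had 374, 358 and 378 in the Slc26a4-/- pools, against 168, 195 and 191 in the Slc26a4+/+ pools, with all Slc26a4-/- arrays above background, all Slc26a4+/+ arrays below it, a difference of at least 1.43-fold and an adjusted p of 0.0558. The dimmest overlapped, with a log2 fold change of -0.29. The activators, which present sphingolipids to these enzymes, did not pass either. Psap, the precursor of the saposins, had 12351, 11807 and 11621 in the Slc26a4-/- pools, against 12213, 12918 and 12110.3 in the Slc26a4+/+ pools and a log2 fold change of -0.06 (SE 0.13). Gm2a, the activator of ganglioside cleavage by Hexa, had 2916, 2911 and 2641 in the Slc26a4-/- pools, against 2253, 2998 and 3232 in the Slc26a4+/+ pools and a log2 fold change of 0.01 (SE 0.16).

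Among the 5 hydrolases of lipids and lipid-modified proteins 1 rose and 0 fell, beside 1.88% and 0.803% of all genes. On the brightest probe set every Slc26a4-/- array was above every Slc26a4+/+ array in 4 of the 5, beside 11.2% of all genes. Lipa, the acid lipase that frees cholesterol and fatty acids from lipoprotein lipids, had signals of 1543, 1223 and 1239 in the Slc26a4-/- pools, against 566, 630.2 and 456 in the Slc26a4+/+ pools. The groups did not overlap, and the log2 fold change was 1.28 (SE 0.18, limma, adjusted p = 0.00692). The groups did not overlap in the other probe sets of Lipa either, with log2 fold changes of 0.80 and 0.57 (adjusted p = 0.133 and 0.413). The call was lost without Slc26a4-/- replicate 1 (adjusted p = 0.0566) and with median centring (0.0509), and held without any other single array. Smpd1, the acid sphingomyelinase, had 6115, 6223 and 6204 in the Slc26a4-/- pools, against 3992, 4609.9 and 3996 in the Slc26a4+/+ pools (log2 fold change 0.56, SE 0.13, adjusted p = 0.0675). It did not pass, although the Slc26a4-/- arrays lay within a narrow range above all the others. Its second probe set overlapped, with 588, 562 and 586 in the Slc26a4-/- pools, against 463, 757 and 712 in the Slc26a4+/+ pools. The log2 fold change there was -0.12. Ppt1, which removes palmitate from proteins, had a log2 fold change of 0.29, Pla2g15, a lysosomal phospholipase and the dimmest of the 5, one of 0.26, and Asah1, the acid ceramidase that acts on the product of Smpd1, one of 0.09.

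Neither of the acid phosphatases passed. Acp5, the tartrate-resistant phosphatase of osteoclasts and macrophages, had signals of 197, 243 and 228 in the Slc26a4-/- pools, against 32.3, 85.2 and 100.3 in the Slc26a4+/+ pools. It was above background on all Slc26a4-/- arrays and below it on all Slc26a4+/+ arrays, with an estimated log2 fold change of 1.77 (SE 0.46, limma, adjusted p = 0.113) that did not pass. No bound on its fold can be given, since the background of the Slc26a4+/+ arrays reached the signals of Slc26a4-/-. Acp2, the phosphatase of most cell types, averaged 638 ± 118 in Slc26a4-/- and 553 ± 143 in Slc26a4+/+ (mean ± SD of 3 arrays) and overlapped on its first probe set. The other probe sets of Acp2 kept the groups apart, with log2 fold changes of 0.35 and 0.51 (adjusted p = 0.486 and 0.296). On the last of them the signals were 467, 435 and 478 in the Slc26a4-/- pools, against 358, 303 and 309.6 in the Slc26a4+/+ pools. Of 8 osteoclast markers 0 rose and 0 fell in limma, with 2 higher at an unadjusted p under 0.05, and the methods' t-test gave 1 higher at that threshold and 0 after adjustment. Their summed signal was 1456 to 1629 in Slc26a4-/- and 847 to 1252 in Slc26a4+/+. Calcr, Oscar, Dcstamp, Ocstamp and Mmp9 were not above background on 2 or more arrays of either genotype. Atp6v0d2 had 259.6, 425.2 and 338.5 in the Slc26a4-/- pools, against 75.4, 134.7 and 173.8 in the Slc26a4+/+ pools. Only its Slc26a4-/- signals exceeded background, and its log2 fold change was 1.47 (limma, adjusted p = 0.0885). Itgb3 exceeded background on 2 Slc26a4-/- arrays only, and its groups overlapped (log2 fold change 1.13, adjusted p = 0.337). Nfatc1 also overlapped (log2 fold change 0.43, adjusted p = 0.545).

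None of the peptidases and the nuclease passed in limma. Both limma and the methods' t-test gave 1 of the 3 higher, Scpep1, at an unadjusted p under 0.05, and the t-test gave 0 after adjustment. Scpep1, a serine carboxypeptidase, had 7093, 6876 and 7204 in the Slc26a4-/- pools, against 5585, 5575 and 5676 in the Slc26a4+/+ pools. The groups did not overlap, and the log2 fold change of 0.33 (SE 0.12) had an adjusted p of 0.298. On its second probe set they overlapped, with a log2 fold change of 0.13. Tpp1, the tripeptidyl peptidase, averaged 5809 ± 614 in Slc26a4-/- and 6832 ± 1825 in Slc26a4+/+ (mean ± SD of 3 arrays), and Dnase2a, the acid nuclease that degrades engulfed DNA, 2551 ± 334 in Slc26a4-/- and 2414 ± 576 in Slc26a4+/+. Both overlapped between the genotypes.

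Among the genes that passed, Laptm5 had the largest log2 fold change on the probe set with the highest signal. It encodes a lysosomal membrane protein of blood cells, and its signals were 3098, 3107 and 3113 in the Slc26a4-/- pools, against 635, 966 and 968 in the Slc26a4+/+ pools. The Slc26a4-/- arrays agreed closely, all lay above the Slc26a4+/+ arrays, and the log2 fold change was 1.89 (SE 0.18, limma, adjusted p = 0.000847). The call held without any 1 array, with an adjusted p of 0.000321 to 0.00823. The remaining 4 probe sets of Laptm5 had smaller log2 fold changes of 0.84, 0.45, 1.39 and 0.19. None of them passed, and in the mean of all 5 the log2 fold change was 0.95 (adjusted p = 0.207). On the brightest of these Slc26a4-/- had 876, 729 and 774, against 245, 536 and 661 in Slc26a4+/+. Beside Laptm5, Ptprc, the phosphatase CD45 of all leukocytes, averaged 946 ± 47.5 in Slc26a4-/- and 226 ± 50.3 in Slc26a4+/+ (mean ± SD of 3 arrays), and its part in this result was not tested.

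The structural proteins of the lysosomal membrane did not pass. Lamp1, whose glycans line the inside of the membrane, had 14476, 14481 and 13617 in the Slc26a4-/- pools, against 12331, 14784 and 18673 in the Slc26a4+/+ pools. Slc26a4+/+ replicate 3 was the highest and Slc26a4+/+ replicate 1 the lowest of the 6 arrays, and the log2 fold change was -0.08 (SE 0.17, limma, adjusted p = 0.895). Lamp2, its relative that also serves chaperone-mediated autophagy, had 8988, 9869.8 and 9676 in the Slc26a4-/- pools, against 9664, 11417 and 10066 in the Slc26a4+/+ pools (log2 fold change -0.12). Scarb2, the receptor that carries β-glucocerebrosidase to lysosomes, had 6619.6, 6675 and 6424 in the Slc26a4-/- pools, against 7693, 7747 and 5866 in the Slc26a4+/+ pools (log2 fold change -0.10). On these probe sets the genotypes overlapped in all 3 genes, whereas dimmer probe sets of Lamp2 and Scarb2 kept them apart. Among the channels and transporters, Ctns, the cystine exporter and the dimmest of the membrane proteins, had 525, 559.7 and 611 in the Slc26a4-/- pools, against 462, 439 and 383 in the Slc26a4+/+ pools. It did not overlap but did not pass, with a log2 fold change of 0.40 (adjusted p = 0.405). Mcoln1, a cation channel that releases Ca2+ from lysosomes, averaged 1148 ± 18.6 in Slc26a4-/- and 1022 ± 78.2 in Slc26a4+/+ (mean ± SD of 3 arrays), without overlap, and Cln3 1100.2 ± 80.1 in Slc26a4-/- and 1048 ± 132 in Slc26a4+/+, with overlap. A dimmer probe set of Mcoln1 overlapped, with a log2 fold change of -0.03. Neither of the proteins that pass cholesterol out of the lysosome passed the test. Npc2, which takes up cholesterol in the lumen, had 14349, 14846 and 14475 in the Slc26a4-/- pools, against 11303, 15925 and 18976 in the Slc26a4+/+ pools, and Npc1, the membrane protein that receives it, had 1065, 1026 and 935 in the Slc26a4-/- pools, against 873, 945 and 802 in the Slc26a4+/+ pools.

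**Figure D2:**
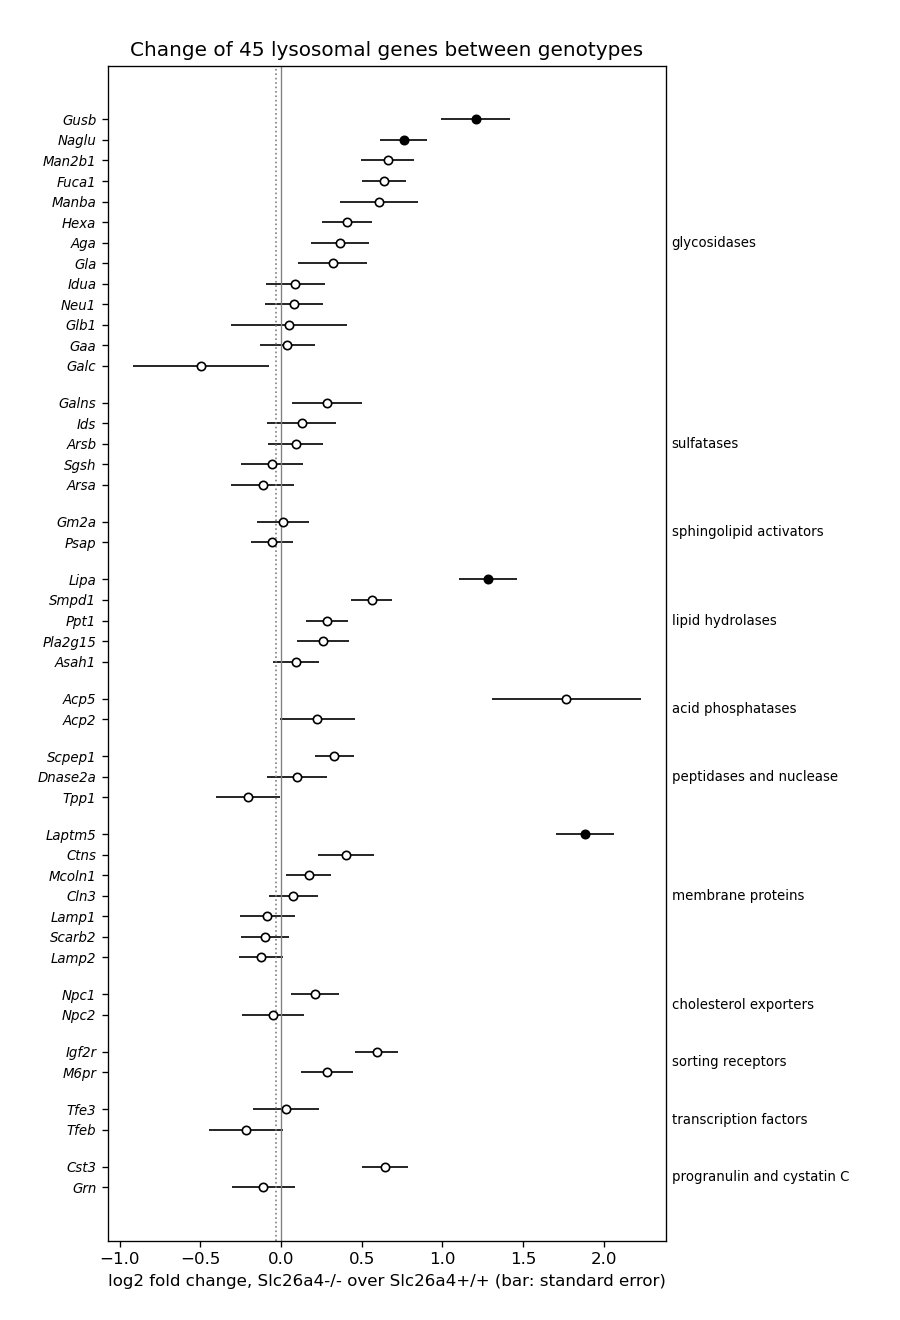
Each row is 1 of the 45 genes, grouped by role, and the x axis is the log2 fold change, Slc26a4-/- over Slc26a4+/+, with bars for the standard error from 3 arrays of each genotype. Filled points passed an adjusted p of 0.05, namely Laptm5, Lipa, Gusb and Naglu, the dotted line is the median of all genes at -0.03, and the value of Acp5 is an estimate from signals below background in Slc26a4+/+.

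Neither of the mannose 6-phosphate receptors passed. Igf2r, the larger receptor that also takes up enzymes at the cell surface, had 2842, 2332 and 2576 in the Slc26a4-/- pools, against 1762, 1693 and 1665 in the Slc26a4+/+ pools. The groups did not overlap, with a log2 fold change of 0.59 (SE 0.13, limma, adjusted p = 0.0643). They overlapped on the second probe set of Igf2r, with a log2 fold change of 0.26. M6pr, the cation-dependent receptor, had 3933, 3894 and 3345 in the Slc26a4-/- pools, against 3245, 3544 and 2467 in the Slc26a4+/+ pools and overlapped (log2 fold change 0.28, adjusted p = 0.558). Cst3, the secreted inhibitor of cysteine cathepsins, had 8305, 8498 and 9154 in the Slc26a4-/- pools, against 5024, 5308 and 6354 in the Slc26a4+/+ pools. Every Slc26a4-/- array was higher, and its log2 fold change of 0.64 (SE 0.14, adjusted p = 0.0573) lay just outside the threshold. It passed without Slc26a4+/+ replicate 1 (adjusted p = 0.0411) or replicate 3 (0.0157). Grn, the precursor of granulins that is secreted and taken up into lysosomes, had the highest mean signal of the 45 genes. That probe set had 14899, 14972 and 14779 in the Slc26a4-/- pools, against 12261, 16056 and 21022 in the Slc26a4+/+ pools, with Slc26a4+/+ replicate 3 the highest of the 6 arrays, and a log2 fold change of -0.11.

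Of the 45 genes 30 were covered by 2 to 6 probe sets, which did not always give the same difference. In 23 genes at least 2 probe sets were above background on 2 or more arrays of a genotype. In 11 of these all such probe sets had a log2 fold change above 0, and in the other 12 they had both signs. The signs differed in some of the genes with the highest signals. Grn, at -0.11 on its brightest probe set, had 0.23 and 0.55 on the others, and the third had 1736, 1660.2 and 1684 in the Slc26a4-/- pools, against 1188, 1107 and 1163 in the Slc26a4+/+ pools (limma, adjusted p = 0.0737). Npc2 had -0.05, 0.37 and 0.35. Scarb2 had -0.10 and 0.69, and the dimmer probe set had 1677, 1387 and 1493 in the Slc26a4-/- pools, against 1224, 840.3 and 798 in the Slc26a4+/+ pools. In each of these genes a dimmer probe set kept the groups apart and the brightest did not. Lamp2 had -0.12, 0.18, 0.42 and 0.36. Of the 4 genes with a mean signal of at least 10000, Grn, Npc2, Lamp1 and Psap, Slc26a4+/+ replicate 3 was the highest of the 6 arrays in 3, all but Psap. The maximum signal on that array was 34867, against 19131 to 20393 on the Slc26a4-/- arrays. Its part in these differences between probe sets was not tested.

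**Figure D3:**
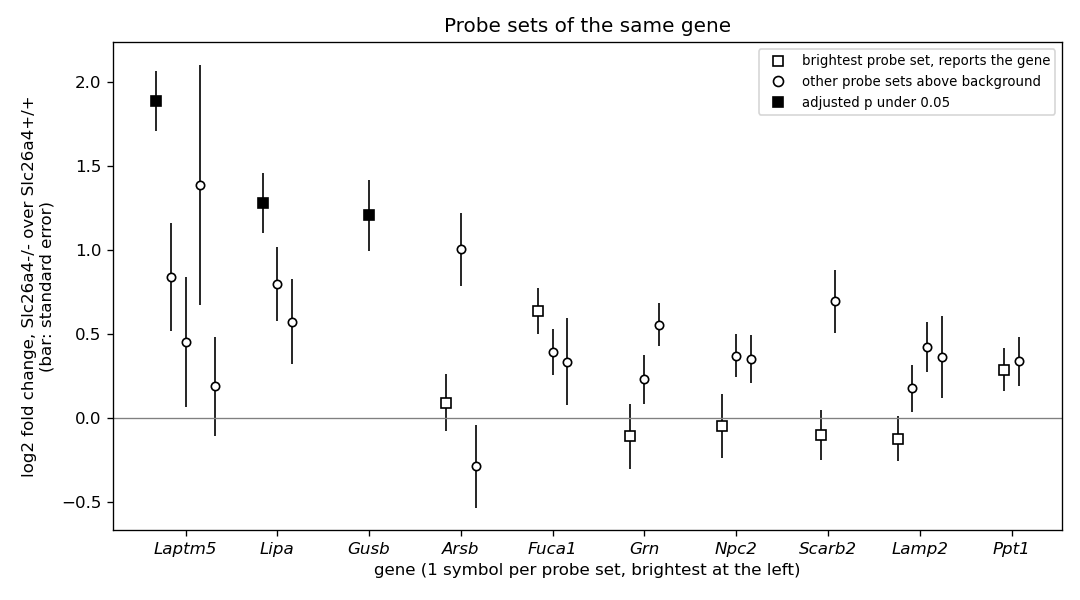
Each symbol is 1 probe set above background, placed by gene along the x axis with the brightest at the left, and the y axis is the log2 fold change, Slc26a4-/- over Slc26a4+/+, with bars for the standard error. Squares are the probe sets by which the genes are reported and filled symbols had an adjusted p under 0.05. The genes were chosen after their values were seen, to show that in Grn, Npc2, Scarb2 and Lamp2 the brightest probe set lies below 0 and the others above it.

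Of the 45 genes, 4 lie on the X chromosome: Gla, Ids, Lamp2 and Tfe3. Xist, the transcript of the inactive X chromosome, had 5634, 5529.6 and 5863 in the Slc26a4-/- pools, against 771, 3358 and 1022 in the Slc26a4+/+ pools. None of the 4 passed in limma, with 0 higher and 0 lower at an unadjusted p under 0.05. The methods' t-test gave 1 higher, Gla, at that threshold and 0 after adjustment. Their median log2 fold change was 0.08, against 0.21 in the 41 genes on other chromosomes. All 4 genes that rose are on other chromosomes. With the Xist signal as a covariate, which overlaps with the genotype, 0 of the 45 genes passed and the log2 fold changes were 1.48 for Laptm5, 1.02 for Lipa, 1.02 for Gusb and 0.74 for Naglu. Of all 45037 probe sets 27 passed in that fit.

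Further lysosomal genes were read from a separate list of 67 genes, of which 57 could be named on the arrays. Of these 57 genes 4 rose and 1 fell, or 5 in all, beside 1.88% of all genes that rose and 0.803% that fell. Their median log2 fold change was 0.07, against -0.03 over all genes. Ctsa, the carboxypeptidase that holds Neu1 and Glb1 together, had 4573, 4643 and 4682 in the Slc26a4-/- pools, against 2151, 1924 and 1976 in the Slc26a4+/+ pools, without overlap and with a log2 fold change of 1.20 (SE 0.12, limma, adjusted p = 0.00137). Neu1 and Glb1 themselves did not pass. Lgmn, the asparaginyl endopeptidase that processes cathepsins, had 2819, 2815 and 3237 in the Slc26a4-/- pools, against 1515, 1023 and 562 in the Slc26a4+/+ pools (log2 fold change 1.63, adjusted p = 0.0253). Slc15a3, a peptide and histidine transporter of endolysosomes, had 356, 293 and 295 in the Slc26a4-/- pools, against 64.6, 67.5 and 12.6 in the Slc26a4+/+ pools, where every array was below background, and was at least 1.21-fold higher in Slc26a4-/- (adjusted p = 0.0408), a bound that takes for each Slc26a4+/+ array its background or its signal, whichever was higher. Cd68, the LAMP relative of macrophages, had 1313, 1441 and 1278 in the Slc26a4-/- pools, against 125, 174 and 211 in the Slc26a4+/+ pools, likewise below background on each, and was at least 5.20-fold higher (adjusted p = 0.000171). The gene that fell was Gga2, an adaptor that loads mannose 6-phosphate receptors into vesicles at the Golgi apparatus, with 2353, 2386 and 2411 in the Slc26a4-/- pools, against 4196, 4158 and 3349 in the Slc26a4+/+ pools (log2 fold change -0.70, adjusted p = 0.0356). All Slc26a4-/- arrays were below all Slc26a4+/+ arrays in Gga2, in the opposite direction to the receptor Igf2r. The number of these 57 genes that passed was 2 without any 1 of the Slc26a4-/- arrays or Slc26a4+/+ replicate 2, and 8 without Slc26a4+/+ replicate 1. The number of all probe sets that rose moved as well, from 535 with all 6 arrays to between 165 and 1048 with 1 array left out.

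Markers of macrophages separated the genotypes more widely. Of 16 such genes, Cd68 among them, 12 rose and 0 fell, with a median log2 fold change of 1.95. Lyz2, the lysozyme of macrophages, had 10473, 9718 and 10180.0 in the Slc26a4-/- pools, against 572, 482 and 495 in the Slc26a4+/+ pools, and C1qa, a complement subunit made by macrophages, had 2319.5, 3014 and 3382 in the Slc26a4-/- pools, against 263, 429 and 372 in the Slc26a4+/+ pools. Csf1r, the receptor that keeps macrophages alive, had 5869.9, 6759 and 6440.1 in the Slc26a4-/- pools, against 2479.5, 3738 and 4170.0 in the Slc26a4+/+ pools and a log2 fold change of 0.91 (limma, adjusted p = 0.0501). Cd68, Fcer1g and Aif1 were below background on every Slc26a4+/+ array, and Itgam was below it on all 6 arrays. Each of the 4 lysosomal genes that rose had a smaller log2 fold change than the median of the macrophage markers, with Laptm5 at 1.89 nearest to it. Markers of marginal cells, which secrete K+, had a negative log2 fold change in all 7 measured, of which 2 fell, and 3 of 6 markers of spiral ligament fibrocytes rose. Of 7 markers of the pigmented intermediate cells 2 rose and 0 fell, with 4 log2 fold changes above 0 and 3 below it. Tyrp1, an enzyme of pigment synthesis, had 1707, 1206 and 1544 in the Slc26a4-/- pools, against 23.6, 80.8 and 34.3 in the Slc26a4+/+ pools, where every array was below background, and was at least 5.70-fold higher (adjusted p = 0.000276). For Pmel, which forms the fibrils of pigment granules, signals were 609, 676 and 658 in the Slc26a4-/- pools, against 249, 227 and 159.7 in the Slc26a4+/+ pools (log2 fold change 1.64, adjusted p = 0.00632), with 1 Slc26a4+/+ array above background. Tyr, the tyrosinase, did not overlap but did not pass, with a log2 fold change of 0.50 (adjusted p = 0.163). In Mlana, Dct, Mitf and Kcnj10 the groups overlapped, with log2 fold changes of 0.38, -0.22, -0.08 and -0.01. The part of these cell types in the signals of the 45 genes was not tested.

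**Figure D4:**
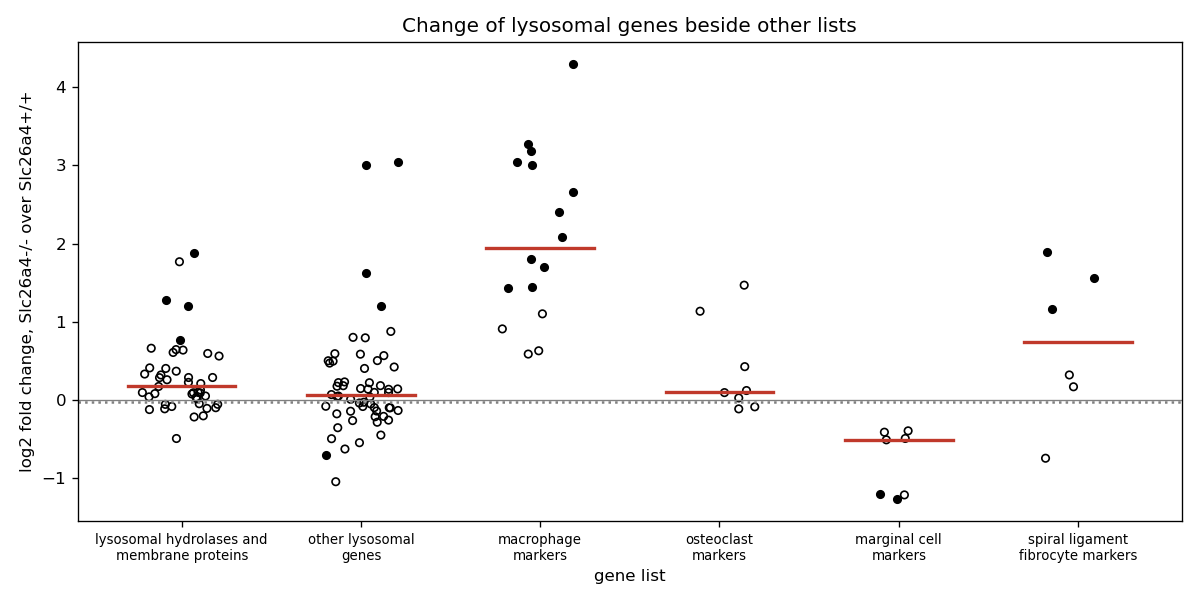
Each point is 1 gene of the list named on the x axis, and the y axis is the log2 fold change, Slc26a4-/- over Slc26a4+/+. Filled points passed an adjusted p of 0.05, red bars are the medians of the lists (0.17 for the 45 lysosomal genes, 0.07 for other lysosomal genes and 1.95 for macrophage markers), the dotted line is the median of all genes at -0.03, and genes below background in a genotype are drawn at their estimate.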

How the data were processed

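The authors deposited 1 signal per probe set and array, a linear intensity from GCOS, a program listed in the submitters' processing notes that corrects for background and scales each array. Neither its version nor its scaling target is given in the sources used here. Of 45101 probe sets 64 controls were left out. Platform annotation gave 34945 of the 45037 tested probe sets 1 gene symbol, 932 several, which were not used, and 9160 none. A gene was read from the probe set that was brightest by mean log2 signal.

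The 172 signals under 1 were raised to 1. Log2 values were compared by limma 3.58.1 in R 4.3.3 (lmFit, eBayes with a trend), without further normalization, two-sided, with Benjamini-Hochberg adjustment over all probe sets. The code was tested on simulated data. Deviations from the genotype means were correlated between replicates of the same number (0.278, 0.215 and 0.142 over probe sets with a mean signal of at least 300). Replicates of different number had -0.258 to 0.12, and these correlations are not independent of each other. The replicate number was therefore also used as a block. The methods' t-test also paired the arrays by replicate number. Precision is limited by the number of arrays.

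The genes and lists were chosen with earlier results of these data known. Values are given array by array for genes that passed, for genes of which another probe set passed and for the brightest and dimmest of each role, and for further genes chosen after their values were seen. Alternatives changed the scaling, pseudocount, filter, trend, array weights, covariates, arrays and the reading of a gene.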

Additional observations from a re-analysis of the deposited data

How the results depend on the processing

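Of the 45 genes 4 rose and 0 fell in limma with a trend, and 0 fell under every alternative run. With the replicate number as a block to pair the arrays, 4 rose and 0 fell, the block changed no other call among the 45 genes, and 5 of the 57 further lysosomal genes passed with and without it. The number of genes that rose was 1 with median centring, 8 with only probe sets averaging 300 or more tested, 12 with array weights, 6 with quantile normalization, where Cst3, Fuca1 and Smpd1 were gained and Gusb was lost, and 0 without the trend, 0 after adding Xist as a covariate and 0 by the methods' t-test. The number of their probe sets that rose was 1 with median centring, 9 with the filter, 21 with array weights and 0 in the last 3 of these settings. Over all probe sets 535 rose in the main fit, 359 with median centring, 534 with quantile normalization and 2372 with array weights. With the filter 565 of 15711 rose, without the trend 93 and with Xist 27. By the methods' t-test 0 rose and 0 fell, so its counts of 0 are not particular to the 45 genes. The array weights were 2.81 for Slc26a4+/+ replicate 2, against 0.372 and 0.316 for replicates 1 and 3. Of the further lysosomal genes 2, 4, 13 and 1 passed with centring, the filter, array weights and no trend, and 0 with the Xist signal or by the methods' t-test. With 1 array left out, 1 to 9 genes, 1 to 12 probe sets and 2 to 8 further lysosomal genes passed. Over all probe sets 165 to 1048 rose in these fits. Without both Slc26a4+/+ replicates 2 and 3, a choice made after seeing the data, 7 genes, 11 probe sets and 9 further genes passed. The median log2 fold change of the 45 genes stayed between 0.13 and 0.29 in all these settings, and that of all probe sets tested between -0.14 and 0.04. Read as the mean of all its probe sets, 4 genes also rose, with Cst3 in place of Laptm5.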
